A study of Mus musculus with 11 samples.

Results

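The BCL2 family of cell survival and death genes was followed across 3 kinds of mouse CD4 T cell. Of the 10 genes chosen by name, 9 were measured, by 29 probe sets, among 18193 genes and 34945 probe sets in all: Bcl2, Bcl2l1, Mcl1, Bcl2l11, Bid, Bbc3, Pmaip1, Bak1 and Bad. Bax was not analysed here. The mice were 6 to 8 weeks old. CD4 T cells of their lymph nodes and spleen were enriched on beads, sorted on GFP, and each sample's RNA was read on 1 Affymetrix array. The 3 GFPKO arrays were of GFP-positive CD4 T cells from Foxp3 GFPKO/WT mice, which carry 1 wild-type Foxp3 allele and 1 knockout allele marked by GFP. Sorting on GFP picked cells that expressed the knockout allele, so Foxp3 RNA in them need not yield working protein. The 5 arrays labelled Treg were of Foxp3-positive CD4 T cells, and the 3 TN arrays of naive Foxp3-negative ones. The labels name neither a strain nor the reporter used to sort the Foxp3-positive cells, nor whether replicates were different animals. The p-values therefore reflect only how far these samples varied, and that variation may be technical. The 11 arrays limit the precision.

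Proteins of the BCL2 family decide whether the outer mitochondrial membrane is opened, which releases cytochrome c and starts the caspases. BCL2, BCL-XL (from Bcl2l1) and MCL1 hold the membrane closed, BAX and BAK form the pores, and the BH3-only proteins BIM (from Bcl2l11), BID, PUMA (from Bbc3), NOXA (from Pmaip1) and BAD bind the survival proteins, while BIM and BID can also activate the pore formers. In mouse T cells BCL2 is sustained by interleukin 7, BIM removes self-reactive and cytokine-deprived cells, and regulatory T cells depend on MCL1.

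Foxp3, the transcription factor of regulatory T cells, read 6.75 to 7.19 on the log2 scale on the GFPKO arrays, 3.29 to 3.64 on the arrays labelled Treg and 3.12 to 3.99 on the TN arrays. The low value goes against the Treg label, and the place of its only probe set relative to either altered allele was not known, so every direction below for the arrays labelled Treg rests on that label. Il2ra, Ctla4, Ikzf2 and Nrp1, the other 4 markers of regulatory T cells, were each called higher on the arrays labelled Treg than on the TN arrays. The 6 CD4 T cell markers had similar mean log2 values in all groups (11.21 to 11.54 in GFPKO, 11.17 to 11.33 in Treg, 11.24 to 11.39 in TN). The non-coding RNA Xist read at least 11.07 on every GFPKO array and at most 3.96 on every other array, and the Y-linked genes Kdm5d, Eif2s3y and Uty were at or below 3.38 on the GFPKO arrays only, so genotype and sex cannot be told apart in any comparison with GFPKO. The GFPKO arrays also stood apart in quality. The actin control read higher at its 3′ than its 5′ end by 0.77 and 0.83 in GFPKO replicates 1 and 2, against 0.44 to 0.61 in Treg and 0.38 to 0.53 in TN, while GFPKO replicate 3 was at 0.45. Correlations between arrays were 0.979 to 0.990 within GFPKO, 0.990 to 0.997 within Treg and 0.994 to 0.995 within TN. Results with GFPKO are therefore also given with replicate 3 as the only GFPKO array, which is then assumed to vary like the other groups. The median level of the arrays was 0.14 higher in Treg than in TN and 0.17 lower in GFPKO than in Treg on the log2 scale. The median of the differences of single genes was smaller, at 0.03 and -0.08. Centring each array on its median takes off the larger shift and so can overcorrect. Values after centring are given where they matter, and which scale is right was not tested.

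Promoter sequences are shown for Bcl2l11 and Bcl2, the members called higher in GFPKO than in TN, with a short stretch of Bbc3, a member called lower in GFPKO than in Treg. They come from RefSeq on GRCm38.p6, in windows of 250 bases before to 50 bases after each annotated start, of which 15 windows of 9 of the 10 genes were at hand (Pmaip1 had none). Capitals mark GTAAACA, the DNA element bound by forkhead factors such as FOXO3 and FOXP3, or its reverse complement, in Bcl2l11 (chr2:128125788-128126037, plus strand) and in Bbc3 (chr7:16310082-16310111, plus strand). In Bcl2 (chr1:106714291-106714540, minus strand) they mark GC boxes, GGGCGG on either strand.
Bcl2l11: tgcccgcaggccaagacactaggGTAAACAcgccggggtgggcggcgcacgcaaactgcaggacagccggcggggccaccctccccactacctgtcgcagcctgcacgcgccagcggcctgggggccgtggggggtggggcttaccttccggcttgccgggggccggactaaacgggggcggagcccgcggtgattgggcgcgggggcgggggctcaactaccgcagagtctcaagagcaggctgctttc
Bcl2: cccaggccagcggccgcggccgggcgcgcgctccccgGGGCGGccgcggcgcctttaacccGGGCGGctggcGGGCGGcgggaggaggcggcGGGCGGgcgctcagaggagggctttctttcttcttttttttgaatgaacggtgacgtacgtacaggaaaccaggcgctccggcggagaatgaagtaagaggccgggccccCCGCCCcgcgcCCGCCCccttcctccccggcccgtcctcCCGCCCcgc
Bbc3: gtctggcgggttTGTTTACaaacaatgggg
The forkhead element began 227 bases before the outermost Bcl2l11 start and 167 bases before an inner Bbc3 start. It occurred in 2 of the 15 member windows and in 3.65% of all 32851 windows, and these 2 genes had opposite directions between GFPKO and Treg. GGGCGG occurred on either strand in 10 of the 15 windows, from 7 genes, and in 35.7% of all windows. The palindromic STAT element TTCNNNGAA occurred in none of the 15 and in 8.30% of all windows. A match describes the letters in these windows and does not show binding.

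In the first comparison, Foxp3-positive cells against naive cells, 3 of the 9 measured members were higher on the arrays labelled Treg and none was lower: the survival gene Bcl2l1 and the BH3-only genes Bid and Pmaip1. Their levels were higher by 2.03-fold to 2.37-fold. Calls are at an adjusted p under 0.05 in limma, over all genes, and 9.97% of all genes were called in this comparison (6.54% higher, 3.42% lower). Centring the arrays turned the split of all calls from 1190 higher and 623 lower into 904 higher and 1174 lower, while the same 3 members were called. The median log2 difference was 0.40 over the 9 members and 0.03 over all genes.

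**Figure D1:**
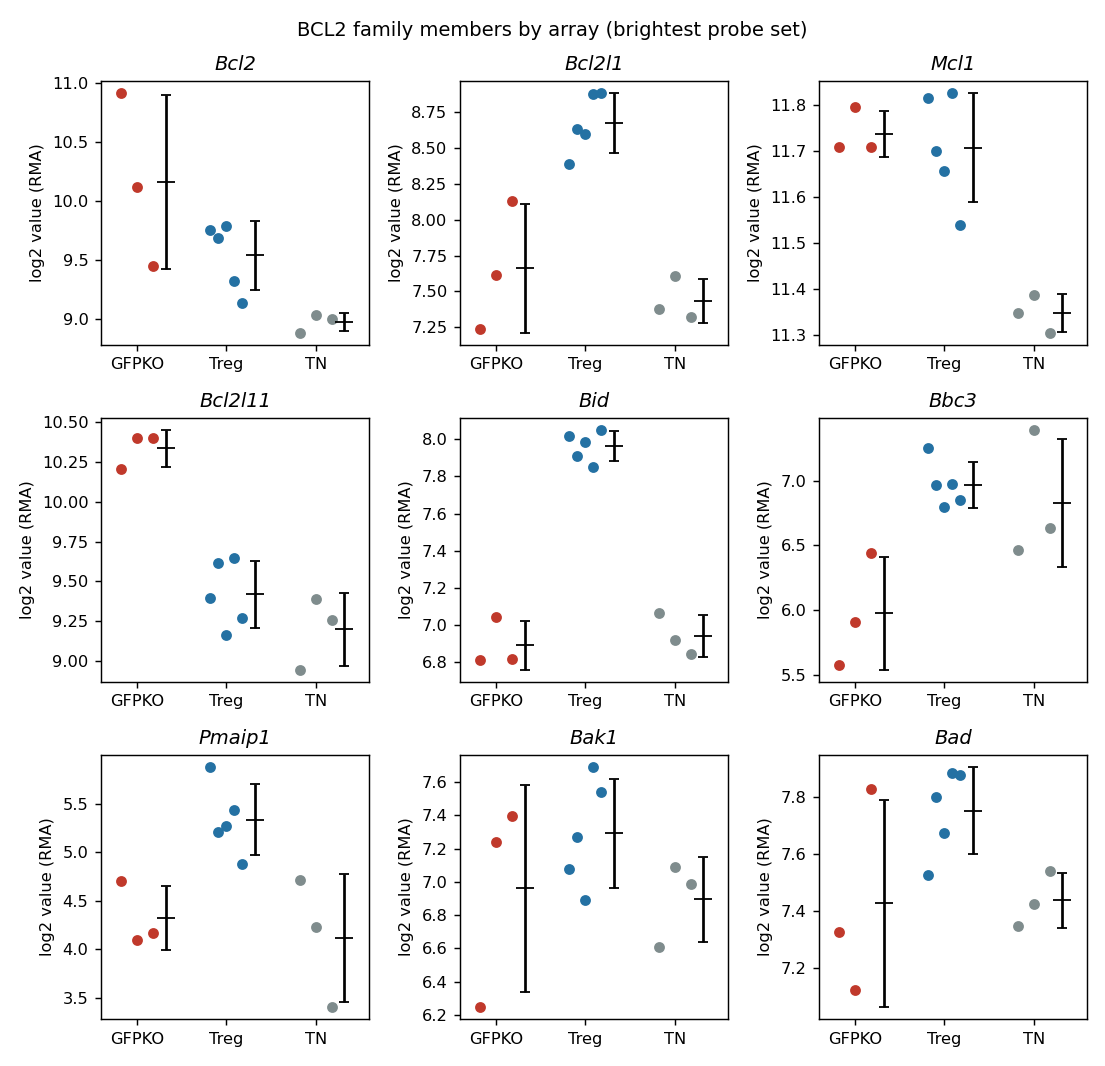
Log2 values of the 9 measured BCL2 family genes by array, with GFPKO (n = 3), Treg (n = 5) and TN (n = 3) from left to right; points are arrays and the black bar is the mean ± SD. Bid and Bcl2l1 stand apart on the arrays labelled Treg, Bcl2l11 on the GFPKO arrays, and the vertical scale differs between panels and does not start at 0.

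Among the survival genes, Bcl2l1, which encodes BCL-XL, read 8.39, 8.63, 8.60, 8.87 and 8.88 on the arrays labelled Treg, against 7.37, 7.60 and 7.32 on the TN arrays. The groups did not overlap, as for 19.5% of all genes in this comparison. The log2 difference was 1.24 ± 0.18 SE (limma adjusted p = 0.00018), or 1.10 after centring. This rested on 1 of its 4 probe sets, since the other 3 had group means between 2.72 and 4.04, near the background of 3.99 (the highest Foxp3 value in TN, a level chosen after the values were seen).

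Mcl1, the survival gene with a short-lived protein, read 11.54 to 11.82 with a median of 11.70 on the arrays labelled Treg, against 11.35, 11.39 and 11.31 on the TN arrays by its brightest probe set. Every Treg array was above every TN array, yet the difference of 0.36 ± 0.11 had an adjusted p of 0.051 in limma and was not called. All 6 Mcl1 probe sets had a positive difference, between 0.36 and 0.54, and 3 of them were called when fitted with all probe sets, among which 7.99% were called. The 3 that were not called, the brightest among them, are all x_at probe sets, a class whose probes can match other transcripts. The 3 called ones are not of that class (limma adjusted p = 0.015, 0.025 and 0.0045). The mean of the 6 was also called, at 0.43 (adjusted p = 0.0068), as was the brightest one without Treg replicate 5, GFPKO replicate 1 or GFPKO replicate 3 (adjusted p = 0.038, 0.039 and 0.044). After centring the difference was 0.22 (adjusted p = 0.24).

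Bcl2 read 9.76, 9.69, 9.79, 9.33 and 9.13 on the arrays labelled Treg, against 8.89, 9.04 and 9.01 on the TN arrays. The groups did not overlap, but the difference of 0.56 ± 0.25 was not called (limma adjusted p = 0.22; 0.046 without GFPKO replicate 1, which enters this comparison through the shared spread). The 5 Bcl2 probe sets gave 0.29 to 0.56, none of them called.

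Of the BH3-only genes, Bid, whose product links death receptors to mitochondria, varied little within groups. It read 8.02, 7.91, 7.98, 7.85 and 8.05 on the arrays labelled Treg, against 7.07, 6.92 and 6.84 on the TN arrays. The gap between the nearest arrays of the groups was wider than the range within either, and the log2 difference was 1.02 ± 0.11 (limma adjusted p = 1.3e-05). The other 2 Bid probe sets were dim and gave 0.45 and 0.46, neither called.

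Pmaip1, which encodes NOXA, the BH3-only protein that binds MCL1, read 5.88, 5.21, 5.27, 5.44 and 4.88 on the arrays labelled Treg, against 4.71, 4.22 and 3.40 on the TN arrays. Its lowest TN value lay below the background of 3.99. The difference was 1.22 ± 0.26 (limma adjusted p = 0.0056), on the only Pmaip1 probe set. Bcl2l11 (0.22 ± 0.14, 95% interval -0.09 to 0.53) and Bbc3 (0.14 ± 0.21, interval -0.32 to 0.59) overlapped between the groups and were not called, and these intervals leave room for changes of up to 0.53 and 0.59.

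The pore former Bak1 (0.40 ± 0.24, adjusted p = 0.42) and the BH3-only gene Bad (0.31 ± 0.15, adjusted p = 0.27) were not called by their brightest probe sets. The second Bak1 probe set had group means of 3.68 to 4.06, near background. For Bad the probe sets disagreed. The dimmer one read 7.38, 7.36, 7.33, 7.60 and 7.75 on the arrays labelled Treg, against 6.81, 6.71 and 6.62 on the TN arrays, and was called among all probe sets at 0.77 ± 0.17 (limma adjusted p = 0.011).

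Markers of dividing cells moved with these 3 members: all 9 measured proliferation genes, such as Mki67 (1.94) and Ccnb2 (1.91), were called higher on the arrays labelled Treg. Their summed linear value was 647 to 1060 in Treg and 229 to 277 in TN, and it was highest in Treg replicates 4 and 5 (1060 and 1040), which also had the highest Bcl2l1 values. The other 2 members did not follow that order within Treg: Pmaip1 was highest in replicate 1 (5.88), which had the lowest sum (647), and lowest in replicate 5 (4.88), and Bid was lowest in replicate 4 (7.85) and highest in replicate 5 (8.05). Of 9 myeloid and dendritic markers 5 were called lower and 1 higher in Treg, with summed values of 239 to 430 in Treg and 465 to 690 in TN, and Cd14 and Itgam were below background in every group. Of 3 measured NK cell markers Klrd1 was lower and Gzmb higher, with sums of 85.6 to 139 in Treg and 422 to 567 in TN and Ncr1 below background. Most of the TN sum came from Klrd1, which averaged 8.83 in TN on the log2 scale, against 4.02 for Gzmb. Of 5 B cell markers 1 was higher and 2 were lower, with sums of 230 to 312 in Treg and 77.4 to 94.2 in TN. The higher one was Cd79b (3.27), while Cd79a and Ms4a1 had group means below background. The part of these cells and of dividing cells in the results was not tested, and in bulk samples more cells that express a gene and more RNA per cell cannot be told apart.

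**Figure D2:**
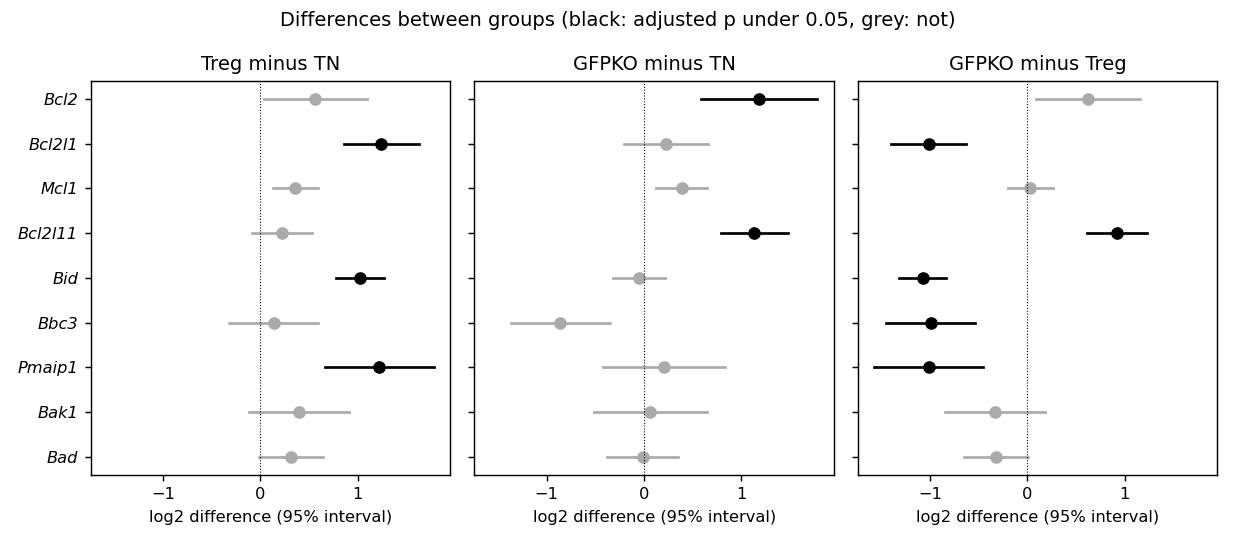
Log2 differences of the 9 members in the 3 comparisons, with 95% intervals from limma; black marks an adjusted p under 0.05 over all genes. Bcl2l1, Bid and Pmaip1 are higher in Treg than in TN and lower in GFPKO than in Treg, and Bcl2l11 is higher in GFPKO than in both.

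In the comparison of GFP-positive cells with naive cells, 2 of the 9 members were called higher in GFPKO and none was lower: Bcl2l11 and Bcl2, a death gene and a survival gene. Of all genes 5.66% were called (2.64% higher, 3.02% lower). The median difference was 0.21 over the members and -0.04 over all genes. The TN arrays are shared with the first comparison. The summed proliferation genes were at 387 to 535 in GFPKO and 229 to 277 in TN (2 of 9 called higher). The myeloid markers summed to 206 to 347 in GFPKO and 465 to 690 in TN, where Tyrobp had the highest mean (7.87). Of these 9 markers 5 were called lower in GFPKO and 0 higher. Lyz2 differed by 0.99 and was not called, and Cd14 and Itgam were below background. The NK cell markers summed to 29.1 to 44.1 in GFPKO and 422 to 567 in TN. Of the NK cell markers only Klrd1 was called (-4.87), while Gzmb was not (-0.20) and Ncr1 was below background. Of the B cell markers Cd79b was called higher in GFPKO (1.65) and Ms4a1 (-1.22) and Blnk (-0.54) lower. Both group means of Ms4a1 lay below the background of 3.99, and Blnk averaged 3.53 in GFPKO and 4.06 in TN. Of the CD8 T cell markers Cd8b1 was lower (-0.62) and Cd8a was not called. Their part in these results was not tested.

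Bcl2l11, which encodes BIM and has the forkhead element shown above, read 10.20, 10.40 and 10.40 on the GFPKO arrays, against 8.95, 9.39 and 9.26 on the TN arrays. The 3 GFPKO arrays lay within 0.20 of each other, and none overlapped with TN, as for 18% of all genes. The log2 difference was 1.13 ± 0.16 (limma adjusted p = 0.00035), a level 2.20-fold higher. It was 1.20 with replicate 3 as the only GFPKO array (adjusted p = 0.0070) and 1.04 with the actin difference as a covariate (adjusted p = 0.0086). Of its 5 probe sets 3 were called, at 0.81 to 1.13, and the dimmest 2 were not, at 0.37 and 0.16.

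Bcl2 read 10.91, 10.12 and 9.45 on the GFPKO arrays, against 8.89, 9.04 and 9.01 on the TN arrays. All 3 GFPKO arrays were above all TN arrays but spread widely, and the difference was 1.18 ± 0.28 (limma adjusted p = 0.018). The call of this probe set was lost without TN replicate 1, 2 or 3 or GFPKO replicate 2 (adjusted p = 0.080, 0.056, 0.053 and 0.061), with the actin covariate (0.76, adjusted p = 0.30), and with replicate 3 as the only GFPKO array (0.47, adjusted p = 0.35). Among all probe sets 4.07% were called, and 4 of the 5 Bcl2 probe sets were. The largest difference was that of the second-brightest one, which read 10.34, 9.57 and 9.05 on the GFPKO arrays, against 7.28, 7.49 and 8.17 on the TN arrays (4.01-fold, limma adjusted p = 0.00076). GFPKO replicate 3, the lowest, was still above every TN array by this probe set. The exception was an x_at probe set (0.65 ± 0.21, adjusted p = 0.11), a class whose probes can match other transcripts.

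Mcl1 read 11.71, 11.79 and 11.71 on the GFPKO arrays, against 11.35, 11.39 and 11.31 on the TN arrays. The groups did not overlap, and the difference of 0.39 ± 0.12 was not called (limma adjusted p = 0.085). Its 6 probe sets gave 0.39 to 0.54, none called alone, while their mean was called at 0.45 (adjusted p = 0.021).

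Bbc3, which encodes PUMA, a target of p53 and FOXO3, went the other way. It read 5.58, 5.90 and 6.44 on the GFPKO arrays, against 6.46, 7.39 and 6.64 on the TN arrays. The nearest arrays were only 0.02 apart, and the difference of -0.86 ± 0.24 just missed the threshold (limma adjusted p = 0.0502). It was called without TN replicate 1 (-1.04, adjusted p = 0.039) or GFPKO replicate 3 (-1.09, adjusted p = 0.0082), and with replicate 3 as the only GFPKO array it was -0.39 (adjusted p = 0.55).

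Bcl2l1, Bid, Pmaip1, Bak1 and Bad overlapped between GFPKO and TN and were not called. Bid differed by -0.05 ± 0.13, with a 95% interval of -0.32 to 0.22. The interval was -0.20 to 0.66 for Bcl2l1, -0.42 to 0.84 for Pmaip1, -0.51 to 0.64 for Bak1 and -0.38 to 0.35 for Bad. For these 5 genes the intervals do not reach a log2 difference of 1 in either direction.

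In the third comparison, of GFP-positive cells with the arrays labelled Treg, 5 of the 9 members were called: the survival gene Bcl2l1 and the BH3-only genes Bid, Bbc3 and Pmaip1 were lower in GFPKO, and the BH3-only gene Bcl2l11 was higher. Of all genes 9.43% were called (2.55% higher, 6.88% lower). After centring the split of all calls was 899 higher and 675 lower instead of 464 and 1252, and 4 of the 5 members were called, without Pmaip1. Both groups were used in a comparison above, so these values are not independent of those. The median difference was -0.33 over the members and -0.08 over all genes.

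Bid read 6.81, 7.04 and 6.82 on the GFPKO arrays, against 8.02, 7.91, 7.98, 7.85 and 8.05 on the arrays labelled Treg. Every GFPKO array was lower than every Treg array by at least 0.81, and groups did not overlap for 14.4% of all genes. The other 2 Bid probe sets were dim and gave -0.43 and -0.37, neither called. The log2 difference of the brightest one was -1.07 ± 0.11 (limma adjusted p = 2.3e-05). It was -1.15 with replicate 3 as the only GFPKO array (adjusted p = 0.00090) and -1.09 with the actin covariate (adjusted p = 0.00024).

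Bcl2l1 read 7.24, 7.61 and 8.13 on the GFPKO arrays, against 8.39, 8.63, 8.60, 8.87 and 8.88 on the arrays labelled Treg. Of the 4 Bcl2l1 probe sets 2 were called lower, and only 1 of these lay above background. By this brightest one, GFPKO replicate 3 came within 0.26 of the nearest Treg array. The difference was -1.01 ± 0.18 (limma adjusted p = 0.0021), -0.80 with the actin covariate (adjusted p = 0.026), and -0.54 with replicate 3 as the only GFPKO array, where it was not called (adjusted p = 0.20).

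Bbc3 read 5.58, 5.90 and 6.44 on the GFPKO arrays, against 7.25, 6.97, 6.80, 6.97 and 6.85 on the arrays labelled Treg. No array overlapped, and the difference was -0.99 ± 0.21 (limma adjusted p = 0.0081). It was not called with the actin covariate (-0.92, adjusted p = 0.064) or with replicate 3 as the only GFPKO array (-0.53, adjusted p = 0.42).

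Pmaip1 read 4.70, 4.10 and 4.16 on the GFPKO arrays, against 5.88, 5.21, 5.27, 5.44 and 4.88 on the arrays labelled Treg. The GFPKO values lay just above the background of 3.99, and the nearest arrays were 0.18 apart. The difference of -1.01 ± 0.26 (limma adjusted p = 0.024) was not called after centring (-0.85, adjusted p = 0.081), without Treg replicate 4 or GFPKO replicate 2 (adjusted p = 0.055 and 0.12), with the actin covariate (-1.05, adjusted p = 0.094) or with replicate 3 as the only GFPKO array (-1.17, adjusted p = 0.14).

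Bcl2l11 read 10.20, 10.40 and 10.40 on the GFPKO arrays, against 9.40, 9.62, 9.16, 9.65 and 9.27 on the arrays labelled Treg. The lowest GFPKO array was 0.56 above the highest Treg array, and the difference was 0.92 ± 0.14 (limma adjusted p = 0.00084). The value was 0.98 with replicate 3 as the only GFPKO array (adjusted p = 0.022). The same 3 of its 5 probe sets as against TN were called, at 0.51 to 0.92, and its dimmest probe set had a difference of -0.11.

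For Bcl2 the answer depended on the probe set. The brightest one overlapped between the groups and was not called (0.62 ± 0.25, limma adjusted p = 0.14; called at 0.97 without GFPKO replicate 3, adjusted p = 0.0064). Among all probe sets 8.6% were called, and 3 of the 5 for Bcl2 were, all higher in GFPKO. The second-brightest read 10.34, 9.57 and 9.05 on the GFPKO arrays, against 8.35, 7.81, 7.77, 7.69 and 8.06 on the arrays labelled Treg, so that the groups did not overlap (1.72 ± 0.26, adjusted p = 0.0011). The other 2 called probe sets gave 0.97 and 0.81, and the gene's mean over its probe sets was called at 0.86 (adjusted p = 0.013).

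Mcl1 differed by 0.03 ± 0.11 between GFPKO and Treg, with a 95% interval of -0.20 to 0.26, and its 6 probe sets lay between -0.09 and 0.12. Bak1 (-0.33 ± 0.24) and Bad (-0.33 ± 0.15) were not called by their brightest probe sets, although Bad was called without GFPKO replicate 3 (-0.53, adjusted p = 0.016). The dimmer Bad probe set read 6.39, 6.83 and 7.28 on the GFPKO arrays and at least 7.33 on the arrays labelled Treg, and was called lower in GFPKO at -0.65 ± 0.17 (adjusted p = 0.032). The summed value of the proliferation genes was 387 to 535 in GFPKO and 647 to 1060 in Treg, and 6 of the 9 were called lower in GFPKO. B cell markers summed to 92.2 to 125 in GFPKO and 230 to 312 in Treg, and of them only Cd79b was called, lower in GFPKO (-1.61). NK cell markers summed to 29.1 to 44.1 in GFPKO and 85.6 to 139 in Treg, with Gzmb called lower (-2.83) and Klrd1 higher (0.81). None of 9 myeloid markers was called by limma (2 at an unadjusted p under 0.05). The part of these markers in the results was not tested.

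**Figure D3:**
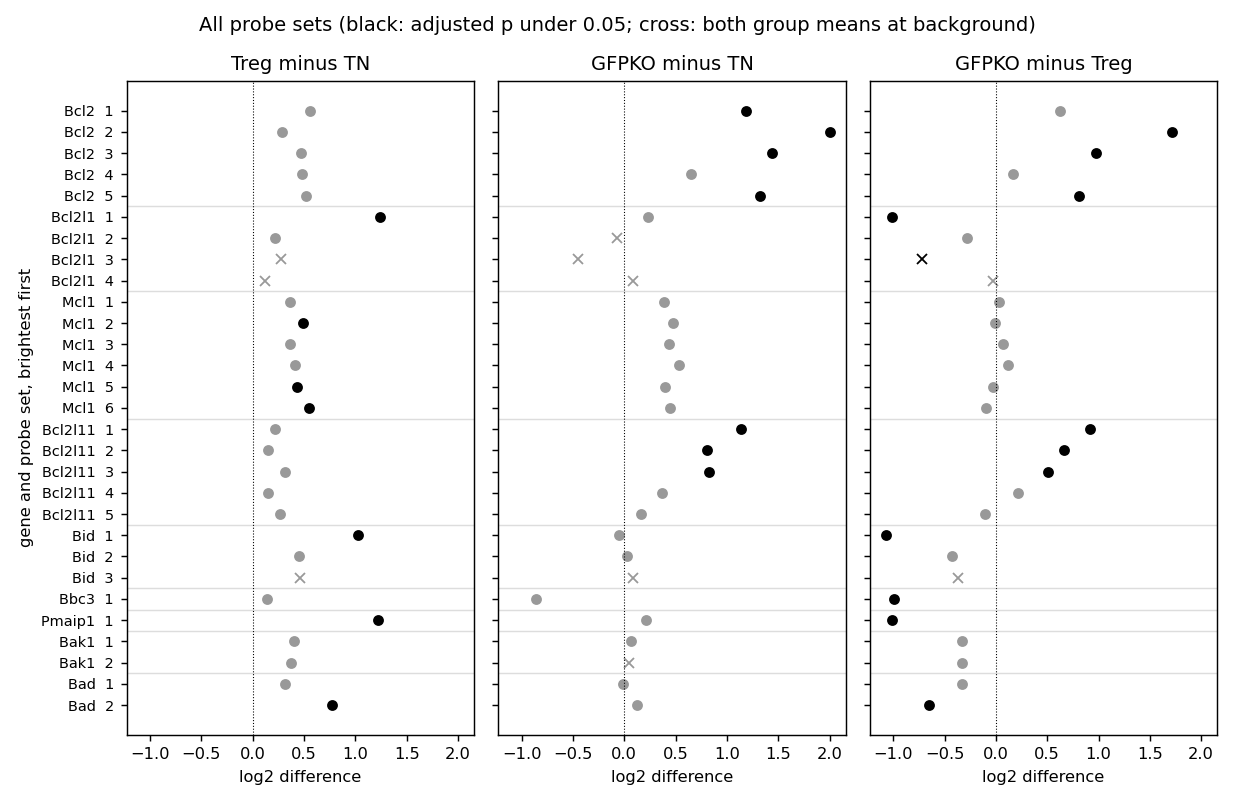
Log2 differences of all 29 probe sets of the 9 members in the 3 comparisons, the brightest probe set of each gene first; black marks an adjusted p under 0.05 over all 34945 probe sets and a cross marks both group means at or below the background of 3.99. The 6 Mcl1 probe sets lie close together in each panel, while those of Bcl2 run from 0.17 to 1.72 for GFPKO minus Treg.

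Put in order of level, Bcl2l11 was highest in GFPKO, with Treg and TN not distinguished. Bid, Bcl2l1 and Pmaip1 were highest in Treg, with GFPKO and TN not distinguished. Bbc3 was lowest in GFPKO, with Treg and TN not distinguished and its difference between GFPKO and TN at the threshold. By its brightest probe set Bcl2 was highest in GFPKO and lowest in TN, and only these ends differed by the test. For Mcl1, Bak1 and Bad no neighbours were distinguished by the brightest probe set. For Mcl1 that was an x_at probe set, and 3 of its other probe sets were called higher in Treg than in TN. The dimmer Bad probe set was called higher in Treg than in TN and lower in GFPKO than in Treg. For Bcl2, 3 of the 5 probe sets were called higher in GFPKO than in Treg.

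Other genes of the cell death pathway were counted in 4 lists, of which 30 of 37 genes were measured: 9 other BCL2 family genes, 8 of the apoptosome and caspases, 6 inhibitors of apoptosis and 7 of the death receptor pathway. Between Treg and TN 4 were called higher and 1 lower, between GFPKO and TN 2 higher and 1 lower, and between GFPKO and Treg 0 higher and 4 lower. The shares called were 16.7%, 10% and 13.3% of the 30 genes, against 9.97%, 5.66% and 9.43% of all genes, and array weights gave 11, 7 and 16 calls.

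Among the other BCL2 family genes only Bcl2l2, which encodes the survival protein BCL-W, was called (named after its values were seen). It was higher in Treg than in TN by 0.79 ± 0.13 (limma adjusted p = 0.00058) and lower in GFPKO than in Treg (-0.59 ± 0.13, adjusted p = 0.0086), the directions of Bcl2l1. The BH3-only gene Bmf read 3.96 in GFPKO, 4.69 in Treg and 4.44 in TN on average and was not called.

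In the apoptosome list none of the 8 genes was called against TN. Casp9, the initiator caspase that cytochrome c release activates, and Apaf1, its scaffold, differed from TN by -0.20 and 0.30 in GFPKO and by 0.28 and -0.05 in Treg. Htra2, a mitochondrial protease, was the only one called between GFPKO and Treg (-0.72 ± 0.14, adjusted p = 0.0049, named after its values were seen).

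Of the inhibitors of apoptosis, Birc5, which encodes survivin, serves chromosome segregation and is also 1 of the 9 proliferation genes, was higher in Treg than in TN by 2.18 ± 0.23 (limma adjusted p = 9.1e-06) and lower in GFPKO than in Treg by the same test (-1.51 ± 0.23, adjusted p = 0.00069). It read 5.05, 5.42 and 5.27 in GFPKO, 6.36 to 7.46 with a median of 6.65 in Treg, and 4.77, 4.75 and 4.22 in TN. Naip2, a sensor of bacterial proteins in mice, had the same directions (1.33 and -1.24). Birc3, which acts in TNF receptor and NF-kB signalling, was called in GFPKO against TN (0.68 ± 0.13, adjusted p = 0.0040, named after its values were seen) but not in Treg against TN (0.37, adjusted p = 0.052), nor between GFPKO and Treg (0.30).

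In the death receptor pathway the receptor and its ligand went apart. Fasl, the ligand, read 6.17, 6.22 and 5.79 in GFPKO, 5.35 to 5.98 with a median of 5.68 in Treg, and 7.35, 6.96 and 6.85 in TN. It was lower than in TN in both GFPKO (-0.99 ± 0.19, limma adjusted p = 0.0043) and Treg (-1.41 ± 0.17, adjusted p = 2.8e-05). Fas, the receptor, was called higher than in TN in both (0.49 ± 0.13 in GFPKO and 0.53 ± 0.12 in Treg, adjusted p = 0.046 and 0.0079, named after its values were seen), and its GFPKO and Treg arrays overlapped.

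Of 12 measured genes that act upstream of the members, the cytokine receptor genes Il7r, Il2rb and Il2ra had the largest differences. Il7r, a receptor chain that sustains BCL2 in naive T cells, read 10.27, 9.62 and 9.44 in GFPKO, 8.78 to 9.89 with a median of 9.41 in Treg, and 11.42, 11.50 and 11.27 in TN. It was thus called lower than in TN in both GFPKO (-1.62 ± 0.27, limma adjusted p = 0.0015) and Treg (-2.08 ± 0.24, adjusted p = 2.2e-05). Bcl2 was not lower than in TN in either group by any probe set, and a link between Il7r and Bcl2 was not tested. Il2rb, the interleukin 2 receptor beta chain, was higher than in TN in GFPKO (2.45) and in Treg (3.71). It was lower in GFPKO than in Treg (-1.26 ± 0.18, limma adjusted p = 0.00035), as were Bcl2l1, Bid, Bbc3 and Pmaip1 and 6.88% of all genes. Unlike Il2rb, none of those members was called higher in GFPKO than in TN, and a link was not tested. Stat5a, which carries the signal of Il2rb, was called between Treg and TN (0.91 ± 0.20, adjusted p = 0.0059). It was not called between GFPKO and TN (0.70, adjusted p = 0.083, named after its values were seen). Foxo1 and Foxo3, forkhead factors that induce Bcl2l11 in T cells, were not called in any comparison, with differences from TN of 0.25 each in GFPKO and of -0.12 and 0.05 in Treg. Between GFPKO and Treg they differed by 0.37 and 0.20 (limma adjusted p = 0.088 and 0.39). Every GFPKO array was above every TN array for both genes, and above every Treg array for Foxo1. Groups did not overlap for 18% of all genes between GFPKO and TN and 14.4% between GFPKO and Treg. The part of these factors was not tested.

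**Figure D4:**
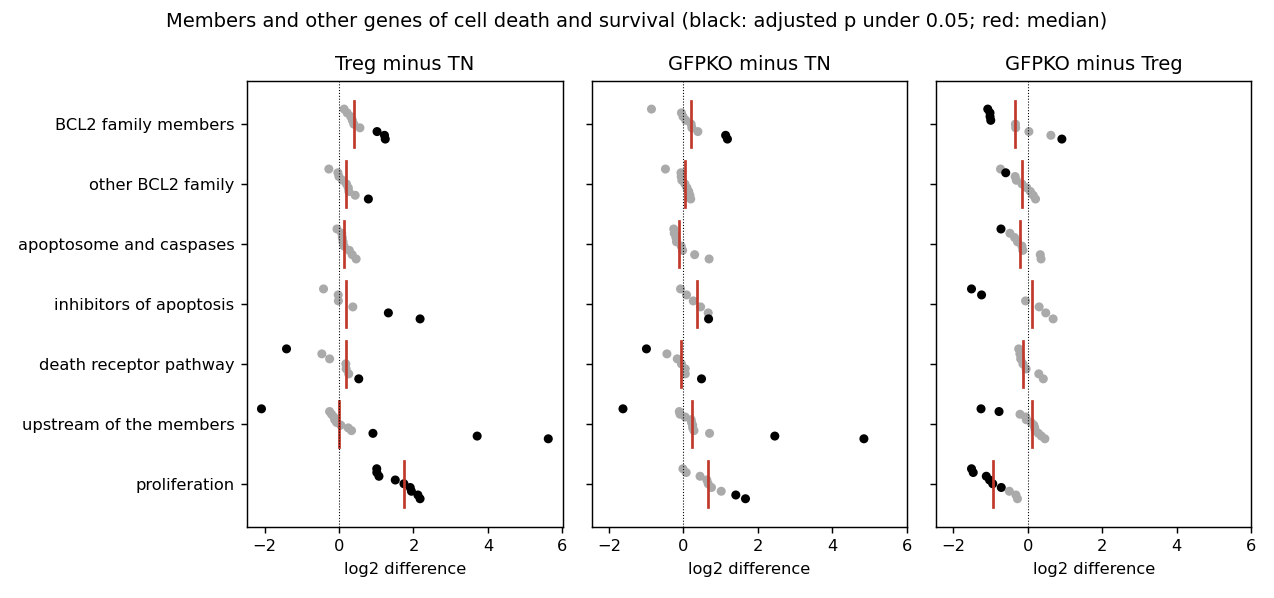
Log2 differences of the 9 members, of 4 other lists of cell death genes, of 12 genes upstream of the members and of 9 proliferation genes in the 3 comparisons; each point is a gene, black marks an adjusted p under 0.05 over all genes and the red bar is the median of the list. All 9 proliferation genes are called higher in Treg than in TN, and the 4 apoptosis lists together hold 5, 3 and 4 called genes of 30.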

How the data were processed

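Per the submitters' processing notes the authors processed the arrays with RMA (version not given in the sources used here), and the values as deposited were taken as log2, from their range of 1.54 to 14.65. The table held 45101 probe sets. Control probe sets (64), those with several gene symbols (932) and those that the gene table does not list (9211) were left out. The remaining 34945 gave 18193 genes, each read from the probe set whose mean over all 11 arrays was highest. 1 mean per group was fitted with limma 3.58.1 in R 4.3.3 (lmFit and eBayes, no covariates, no filter on dim genes), two-sided, with Benjamini-Hochberg adjustment within a comparison. All probe sets were fitted likewise. The code was tested on simulated data.

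Groups came from the sample titles, and the labels give no batch. Members and gene lists were chosen with earlier results of these data known. Named genes were all members, list genes called with a log2 difference of at least 1, and unchanged examples of a list without one. The alternatives covered probe set choice, dim genes, centring, variance model, array weights, the groups fitted, replicate numbers and each array left out. The actin covariate and the fit with 1 GFPKO array were chosen after seeing the data. Deviations from the group means correlated above 0.1 in 3 of 9 pairs of same-numbered arrays, all 3 of replicate 1 (0.16 to 0.51). No pair of replicates 2 and 3 did so, and pairs with different numbers reached 0.29. The numbers were therefore not taken as pairs. Whether the arrays of replicate 1 shared a run was not tested.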

Additional observations from a re-analysis of the deposited data

Results flagged for a closer look

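Dixon's test of a single array that stands apart was run only on the arrays labelled Treg (n = 5), and it singled out 0 of the 9 members there. The GFPKO and TN arrays (n = 3 each) were not examined in this way.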

How the results depend on the processing

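Over 21 alternatives, 522 of 564 refitted differences of single members kept their side of the threshold, 27 were called only in the alternative, 15 only in the values reported, and 0 called differences changed direction. Bcl2l1, Bid and Pmaip1 for Treg minus TN, Bcl2l11 for GFPKO minus TN, and Bcl2l11 and Bid for GFPKO minus Treg were called in every alternative that tested them (Pmaip1 lies below the median level, so that filter left it out). For Treg minus TN, 3 members were called, and 5 with means over probe sets, with array weights, in the fit of only the 2 groups compared and with 1 GFPKO array (3 to 5 with 1 array left out, the 5 without GFPKO replicate 1). For GFPKO minus TN, 2 were called, 4 with a trend and robust eBayes or with array weights, and 1 in the fit of only the 2 groups, with the actin covariate or with 1 GFPKO array (1 to 3 with 1 array left out: 1 without TN replicate 2 or 3 or GFPKO replicate 2). For GFPKO minus Treg, 5 were called, 3 with the actin covariate and 2 with 1 GFPKO array (4 to 7 with 1 array left out).

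Of the 30 other apoptosis genes 5, 3 and 4 were called in the 3 comparisons. With array weights these became 11, 7 and 16; with the actin covariate 1 for GFPKO minus TN; with 1 GFPKO array 1 for GFPKO minus TN and 2 for GFPKO minus Treg. With 1 array left out they ran from 4 to 7, 2 to 5 and 4 to 13, the highest of the last 2 without GFPKO replicate 3. Of all genes 1813, 1029 and 1716 were called. With array weights there were 3223, 5051 and 6756; for GFPKO minus TN 562 in the fit of only the 2 groups and 570 with the actin covariate; for GFPKO minus Treg 811 with the actin covariate and 635 with 1 GFPKO array. With 1 array left out the counts ran from 1360 to 2398, 644 to 1868 (without TN replicate 1 and GFPKO replicate 3) and 1134 to 3421 (without GFPKO replicates 1 and 3). The causes were not tested. With the replicate number as a block, the counts of members stayed at 3, 2 and 5, and 1049 of all genes were called for GFPKO minus Treg; correlations of the deviations of same-numbered arrays lay between -0.22 and 0.51.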

Other observations

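Within the GFPKO group the members did not vary alike. All 5 Bcl2 probe sets were highest in replicate 1 and lowest in replicate 3, with 10.91 and 9.45 for the brightest one. Bcl2l1 (7.24 and 8.13), Bbc3 (5.58 and 6.44) and Bak1 (6.25 and 7.40) were lowest in replicate 1 and highest in replicate 3. The SD of Bcl2 was 0.73 in GFPKO, 0.29 in Treg and 0.08 in TN, while that of Bcl2l11 was 0.11, 0.21 and 0.23 in the same groups. Replicate 2 lay between them in each, with 10.12 for the brightest Bcl2 probe set, 7.61 for Bcl2l1, 5.90 for Bbc3 and 7.24 for Bak1. The actin 3′ minus 5′ differences were 0.77, 0.83 and 0.45 in GFPKO replicates 1, 2 and 3. Whether RNA quality had a part in the spread of these genes was not tested.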
